A study of Mus musculus with 12 samples.

Results

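The 10 genes described here encode enzymes of aerobic glycolysis: Hk1, Hk2, Gpi1, Pfkl, Aldoa, Gapdh, Pgk1, Eno1, Pkm and Ldha. They were chosen by name to cover the pathway apart from the steps of Tpi1 and Pgam1, and were found by their Ensembl gene IDs among the 54146 genes counted. All 10 passed the filter on low counts that left 18628 genes to test. Gene names were taken from GENCODE M21.

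RNA-seq was run on whole retinas of 12 mice, 3 in each of 4 groups, to follow gene expression after Otx2 was removed from adult photoreceptors (PRs). The cKO mice carried the Crx-CreERT2 transgene and Otx2 flox/flox alleles on a 129/SV background, and received 1 injection of tamoxifen at postnatal day 30 (P30). Their retinas were taken 2, 4 or 8 d later, at P32, P34 or P38. The label of the control group gives no day after induction, and the methods place its collection at P30, at 0 d, so that age, tamoxifen and the deletion changed together between the control and every cKO group. The Crx promoter drives the Cre in PRs, whereas the libraries were made from the whole retina, with attached fragments of the retinal pigmented epithelium (RPE). The genotype of the controls beyond "control" was not in the labels. Mice are numbered 1 to 3 (P30 control), 4 to 6 (P32 cKO), 7 to 9 (P34 cKO) and 10 to 12 (P38 cKO). Levels are given as CPM, counts scaled to a common library size with edgeR's TMM factors.

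Glycolysis splits glucose into pyruvate and yields ATP and NADH. Where oxygen is present and the pyruvate is still turned into lactate, the process is called aerobic glycolysis, and the PRs of the retina are known for it: they carry hexokinase 2, the M2 form of pyruvate kinase, and much lactate dehydrogenase A. Glucose reaches them through the RPE, which takes back lactate.

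Sequence shared with other genes bears on how these genes could be counted. The reads were 50 bases long and the authors counted only reads with 1 position in the genome, so a stretch of transcript that another locus also carries adds no counts. Genes with processed copies elsewhere in the genome, such as Gapdh, are open to this. A stretch of exon 4 of Gapdh on the minus strand (chr6:125162898-125162947, GRCm38), 1 read long and coding, is printed as an example, since all 50 of its bases also occurred in annotated transcripts of 84 other genes.
Gapdh exon 4: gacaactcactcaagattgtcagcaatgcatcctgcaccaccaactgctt

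Over all 50-base windows of the protein-coding transcripts in GENCODE M21, 58.4% of those of Gapdh occurred in transcripts of other genes, 211 of the 222 such genes being pseudogenes. The share was 68.0% for Pgk1, nearly all of it with its retrogene Pgk1-rs7, and 49.5% for Eno1, nearly all of it with Eno1b. Intermediate shares were found for Gpi1 (24.5%), Pkm (23.7%), Ldha (10.4%) and Aldoa (8.46%). For Hk1, Hk2 and Pfkl the share was 1.64%, 0.0% and 0.0532%. Copies outside annotated transcripts were not searched. The glycolytic enzyme Pgam1, which is not 1 of the 10 genes, had a share of 41.5%.

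Per kilobase of all annotated exons joined, Aldoa was the most abundant of the 10 in the P30 controls, at 758 ± 67.8 CPM per kb (SD, n = 3). Ldha (273 ± 29.9) and Pkm (260.2 ± 16.1) followed and did not differ beyond their spread. Gpi1 (101 ± 7.12) and Hk1 (90.4 ± 8.00) came next and overlapped, and then Hk2 (74.0 ± 7.19), Pfkl (73.4 ± 9.88) and Eno1 (62.3 ± 21.7), which overlapped each other. Pgk1 stood at 17.5 ± 1.17 and Gapdh at 4.59 ± 0.285 CPM per kb. Counted over the longest transcript alone, the shared windows were 82.5% for Gapdh, 72.2% for Eno1 and 68.0% for Pgk1. It was 34.4% for Pkm and 25.3% for Gpi1. Levels of genes whose shared windows lie at another locus are therefore lower bounds, the more so the larger the share, and the places of Gapdh, Eno1 and Pgk1 cannot be read as abundance. The search did not set apart genes that overlap at the same locus, where a read keeps 1 position. All shared windows of Hk1 were with Hk1os. The order also depends on the length used. Per kilobase of the longest transcript, Pfkl (131 ± 17.7) lay above Hk2 (80.1 ± 7.79) with no overlap, Hk1 stood at 180.3 ± 16.0 and Eno1 at 165 ± 57.7, while Aldoa (1425 ± 127) stayed highest and Pgk1 (21.5 ± 1.43) and Gapdh (13.3 ± 0.828) lowest. In total counts the 10 genes took 0.692 to 0.818% of a library.

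**Figure D1:**
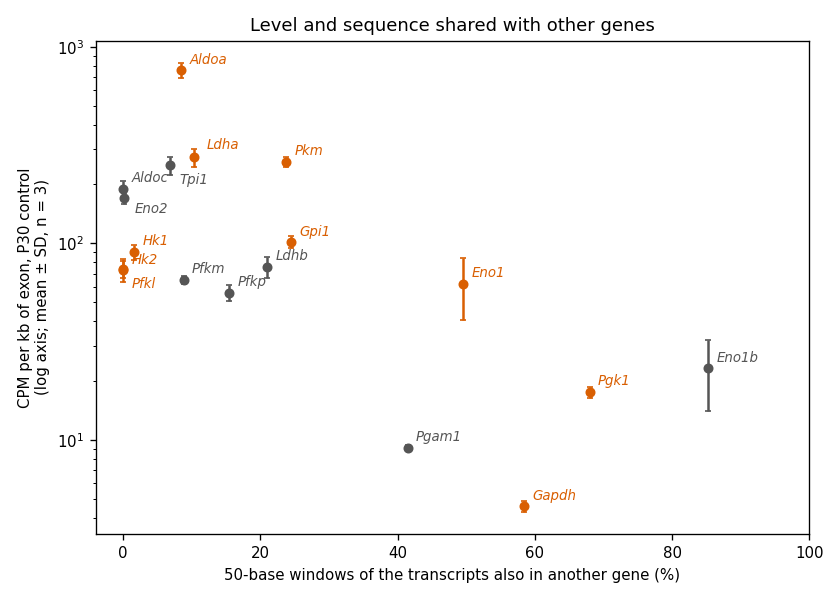
Level in the P30 controls (CPM per kb of exon, mean ± SD of 3 mice, log axis) against the share of 50-base transcript windows that also occur in another gene (%), for the 10 genes (orange) and 8 related enzymes (grey). Gapdh, with 58.4% of its windows shared, had the lowest level, and Aldoa, with 8.46%, had the highest.

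The promoters of the genes were read from RefSeq (GRCm38.p6), as the 250 bases before each annotated start, with 17 promoters for the 10 genes. The letters TAATCC, the core that OTX2 and CRX bind, were searched on both strands, as were ACGTG and GCGTG, the core letters of hypoxia response elements. TAATCC occurred in 1 of the 17 promoters, a promoter of Ldha, and in 6.25% of all 32851 promoters. ACGTG occurred in 6 of the 17 (Aldoa, Hk2, Ldha, Pgk1 and Pkm) against 16.6% of all promoters, and GCGTG in 7 (Eno1, Gapdh, Hk1, Ldha and Pfkl) against 28.2%. Several starts of Eno1 and of Aldoa lie so close that their promoters overlap. Printed here are the promoter of Hk2 and that of the 2 Pkm promoters with a match, since their levels are taken up next, and both promoters of Ldha, 1 with TAATCC. Capitals mark the searched letters. In Ldha they overlap at CACGTG, which reads the same on both strands. A match of letters is not a measured binding site.
Hk2, minus strand, chr6:82774455-82774704: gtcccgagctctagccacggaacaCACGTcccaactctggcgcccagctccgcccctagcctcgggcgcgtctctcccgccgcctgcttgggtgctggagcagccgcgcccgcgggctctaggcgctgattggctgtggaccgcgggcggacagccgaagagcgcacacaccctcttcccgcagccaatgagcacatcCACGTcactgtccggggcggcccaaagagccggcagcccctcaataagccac
Pkm, plus strand, chr9:59656977-59657226: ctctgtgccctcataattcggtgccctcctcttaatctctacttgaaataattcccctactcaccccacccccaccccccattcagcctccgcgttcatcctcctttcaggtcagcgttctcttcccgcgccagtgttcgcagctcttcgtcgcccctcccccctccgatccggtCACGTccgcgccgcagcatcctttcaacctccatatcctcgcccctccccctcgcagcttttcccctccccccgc
Ldha, plus strand, chr7:46845554-46845803: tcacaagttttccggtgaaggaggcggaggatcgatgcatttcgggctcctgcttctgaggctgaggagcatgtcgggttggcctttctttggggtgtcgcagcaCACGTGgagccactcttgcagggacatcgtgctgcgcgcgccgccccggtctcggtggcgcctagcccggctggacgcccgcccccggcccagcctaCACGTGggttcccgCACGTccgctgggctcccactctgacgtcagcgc
Ldha, plus strand, chr7:46846832-46847081: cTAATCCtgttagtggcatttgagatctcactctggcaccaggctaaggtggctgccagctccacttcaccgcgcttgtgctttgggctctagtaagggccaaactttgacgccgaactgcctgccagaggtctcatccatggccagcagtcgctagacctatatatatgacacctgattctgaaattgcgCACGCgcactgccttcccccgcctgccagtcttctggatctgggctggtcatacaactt

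Library depth ranged from 29701483 to 60145034 counts on genes, and 23.7 to 32.2% of the reads had no unique position. Otx2 measured 293 to 328 CPM in the controls and 307 to 377 CPM in the cKO retinas. The recombination removes 1 coding exon and Otx2 is also made outside PRs, so the gene's total count does not check the deletion. Summed CPM of 8 rod markers, all detected in each library, was 63401 to 69707 at P30, 57262 to 62575 at P32, 71918 to 95858 at P34 and 70402 to 106103 at P38. That of 9 lens markers spanned 292 to 48223 CPM over the libraries. By Y-linked and Xist counts, 5 libraries were male and 7 female, with 0 males in the P30 control.

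No gene among the 10 was called in any of the 7 comparisons (edgeR quasi-likelihood, adjusted p at most 0.05 over all genes tested, and a log2 difference of 0.5 or more either way). In simulated counts, this rule at P38 against P30 recovered 31% of genes changed 1.5-fold and 87% of those changed 2-fold. A gene without a call can therefore still have changed by such a fold. Among all genes, the same rule called, against P30, 0% (P32), 0.66% (P34), 0% (P38) and 0.36% for all cKO retinas pooled. Between cKO ages it called 0.242% at P34 against P32, 0.199% at P38 against P34 and 0% at P38 against P32. DESeq2's Wald test called 1 of the 10, Hk1 at P38 against P32, where it called 6.05% of all genes with an adjusted p. In its other comparisons it called 0 of the 10, against 0.134% (P32), 1.98% (P34), 0.242% (P38) and 0.811% (pooled cKO) of all genes relative to P30, 8.65% at P34 against P32 and 0.774% at P38 against P34. An F test of any difference among the 4 groups called 0 of the 10 genes and 0.344% of all genes, and its smallest unadjusted p among the 10 was 0.0201, for Hk1 (edgeR, adjusted p = 0.233).

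**Figure D2:**
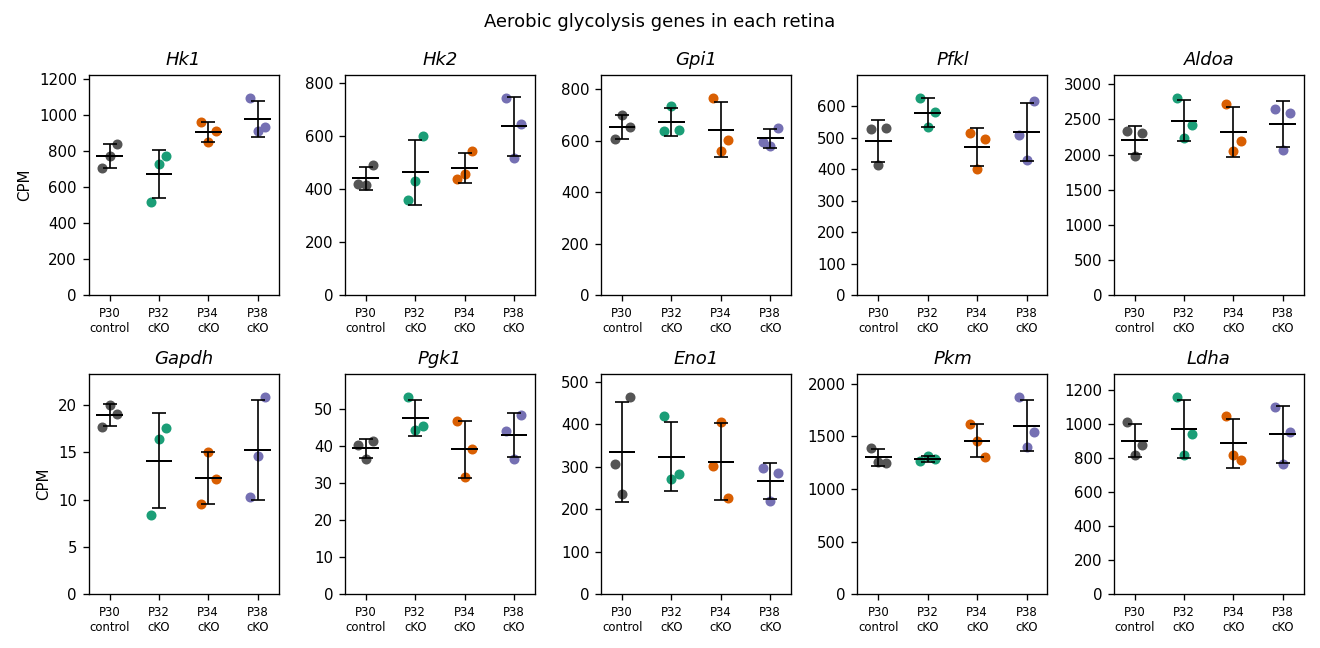
CPM of each of the 10 genes in each retina (points), with the mean and SD of 3 mice (black), by group. Hk1, Hk2 and Pkm are higher in all 3 P38 cKO retinas than in every P30 control, and the groups overlap at P38 for the other 7 genes.

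Hexokinases phosphorylate glucose and hold it in the cell. HK1 is the form of most tissues and HK2 is enriched in PRs. Hk2 (chr6:82725025-82774454, minus strand) measured 418, 416 and 491 CPM in the P30 controls, 360.1, 432 and 599 (P32), 438, 456 and 544 (P34), and 741, 519 and 647 (P38). All 3 P38 retinas lay above every control, while the P32 and P34 values overlapped the controls. Its log2 fold change at P38 was 0.53 (SE 0.19), at an unadjusted p of 0.0170 and an adjusted p of 0.847 (edgeR).

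Hk1 (chr10:62268855-62379908, minus strand) measured 703, 773 and 839 CPM at P30, 519.7, 730.1 and 769 (P32), 961, 847 and 908 (P34), and 1090.4, 911 and 930.4 (P38). The P34 and P38 retinas lay above every P30 and P32 retina, and mouse 4 at P32 was the lowest of the 12. Against P30 its log2 fold change was 0.23 (SE 0.15) at P34 and 0.34 (SE 0.15) at P38, with unadjusted p of 0.159 and 0.0469 and adjusted p of 0.630 and 0.847 (edgeR).

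Measured against P32, Hk1 had a log2 fold change of 0.43 (SE 0.15) at P34 and 0.54 (SE 0.15) at P38, with adjusted p of 0.121 and 0.117 (edgeR). Hk2 differed by 0.46 (SE 0.19) between P38 and P32 (edgeR, adjusted p = 0.185). With edgeR these calls turned on 1 library. Without mouse 6 (P32), Hk1 was called at both P34 and P38 against P32, with log2 fold changes of 0.54 and 0.65 and adjusted p of 0.0445 and 0.0330, and Hk2 was called at P38 with 0.68 and adjusted p of 0.0320 (edgeR). That fit called 14.3% of all genes at P34 and 10.2% at P38 against P32. Without mouse 4, the lowest for both hexokinases, the log2 fold changes against P32 were 0.27 for Hk1 at P34, 0.38 for Hk1 at P38 and 0.30 for Hk2 at P38, and neither gene was called. With all 12 libraries DESeq2 gave Hk1 an adjusted p of 0.0138 at P38 and of 0.0413 at P34 against P32, the latter with a fold change under the limit of a call.

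Pyruvate kinase makes pyruvate and ATP in the last step before lactate. Pkm (chr9:59656368-59679375, plus strand), from which both M1 and M2 forms are spliced, measured 1394, 1261 and 1249 CPM at P30, 1264, 1314 and 1281 (P32), 1618, 1455 and 1308 (P34), and 1873, 1397 and 1541 (P38). The lowest P38 retina, at 1397, was just above the highest control, at 1394. The log2 fold change of Pkm at P38 was 0.30 (SE 0.14) against P30 and 0.32 (SE 0.14) against P32, with unadjusted p of 0.0477 and 0.0384 and adjusted p of 0.847 and 0.194 (edgeR). Without mouse 10, the highest, they were 0.18 and 0.20. The counts do not separate the M1 and M2 forms.

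Hk1, Hk2 and Pkm were thus the 3 of 10 genes at an unadjusted p of at most 0.05 and higher at P38 than at P30, where 1.82% of all genes were. They were also the 3 of 10 whose P38 retinas all lay above the controls, as in 8.23% of all genes. With the fold limit added to the unadjusted p, 1 of the 10 was higher at P38 against P30, Hk2, where 0.805% of all genes were, and 1 against P32, Hk1, where 5.68% were. The summed rod markers also lay higher in every P34 and P38 retina than in every P30 and P32 retina, though 0 of the 8 genes were called against P30, and mouse 10 was highest for Hk1, Hk2, Pkm and the rod markers alike. At P38 the summed markers of Müller glia (4248 to 4287 CPM against 4552 to 4813), erythrocytes (21.6 to 30.4 against 45.2 to 87.1) and smooth muscle (16.7 to 22.7 against 29.5 to 198) lay wholly below the controls. Of the genes in these lists 0 were called at P38 against P30 (edgeR), where 0% of all genes were. The part of these cell types in the differences was not tested. In RNA of a whole retina, fewer cells of a type and less RNA per cell cannot be told apart. Against P32, the same 3 of 10 were higher at an unadjusted p of at most 0.05 at P38, where 12.3% of all genes were, and Hk1 and Pkm did not overlap, as 13.3% of genes lay above. At P34 against P32 the count was 1 of 10, Hk1, beside 13.5% of all genes, and Hk1 was also the gene that lay wholly above, as 14.8% of genes did.

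**Figure D3:**
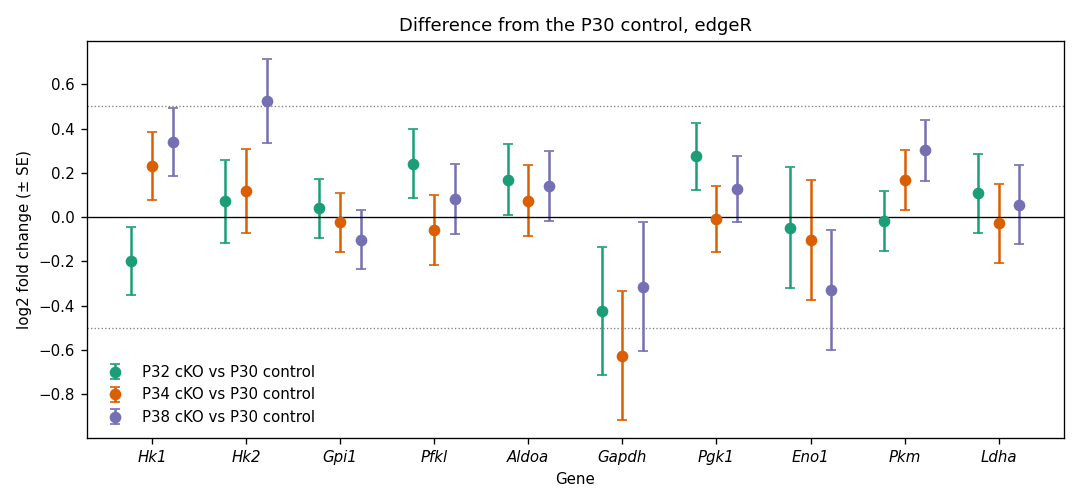
Log2 fold change against the P30 control (edgeR, ± SE) of the 10 genes at P32, P34 and P38, with dotted lines at 0.5 in size, the fold limit of the call. Hk2 at P38 (0.53) and Gapdh at P34 (-0.63) pass a dotted line, and neither passes the adjusted p.

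Glucose-6-phosphate isomerase and phosphofructokinase carry the sugar to fructose-1,6-bisphosphate, the latter as the committed step. Gpi1 measured 607, 699 and 655 CPM at P30, 638, 734 and 642 (P32), 764, 559.7 and 605 (P34), and 596, 581 and 650.2 (P38), with each cKO group overlapping the controls. The liver-type subunit Pfkl measured 526, 414 and 529.8 CPM at P30, 624, 532 and 581 (P32), 513, 401 and 497 (P34), and 508, 430.1 and 616 (P38). Only the P32 retinas lay wholly above the controls, by a log2 fold change of 0.24 (SE 0.16, edgeR adjusted p = 0.698), and P34 lay wholly below P32 (-0.30, SE 0.16, adjusted p = 0.241), as 13.6% of all genes did. Without mouse 2 the P32 value was 0.13, and without mouse 8 the difference between P34 and P32 was -0.20.

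Aldolase splits the sugar into a pair of 3-carbon units. Aldoa (chr7:126795234-126800751, minus strand) measured 2331, 1979 and 2311 CPM at P30, 2797, 2228 and 2422 (P32), 2724, 2058 and 2186 (P34), and 2646, 2064 and 2589 (P38). Within each group 1 mouse (1, 4, 7 and 10) was highest, and the groups overlapped throughout.

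GAPDH makes the NADH that lactate dehydrogenase later uses up, and PGK1 makes the first ATP. The uniquely counted part of Gapdh (chr6:125161715-125166467, minus strand) measured 17.7, 20.1 and 19.1 CPM at P30, 8.34, 16.4 and 17.6 (P32), 9.55, 15.1 and 12.2 (P34), and 10.3, 14.7 and 20.8 (P38), from 278 to 1123 counts a library. P32 and P34 lay wholly below the controls, as 4.39% and 9.67% of all genes did, with log2 fold changes of -0.42 (SE 0.29) and -0.63 (SE 0.29) and adjusted p of 0.698 and 0.489 (edgeR), and the P38 values overlapped them. Without mouse 4 the P32 value of Gapdh was -0.16. Pgk1 measured 40.2, 36.3 and 41.3 CPM at P30, 53.1, 44.2 and 45.2 (P32), 46.7, 31.5 and 39.0 (P34), and 44.1, 36.4 and 48.3 (P38). Pgk1 and Pfkl were the 2 genes wholly above the controls at P32, where 5.26% of all genes were, and the log2 fold change of Pgk1 was 0.27 (SE 0.15, edgeR adjusted p = 0.698). At P34 the gene wholly above the controls was Hk1, among 10.4% of all genes.

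Enolase 1 makes phosphoenolpyruvate. Eno1 (chr4:150236721-150248879, plus strand) measured 306, 235 and 464 CPM at P30, 418, 271 and 283 (P32), 303, 406 and 226 (P34), and 296, 218 and 285 (P38). Mice 3, 4 and 8 stood above the other 9, and each group overlapped the controls. Its log2 fold change at P38 was -0.33 (SE 0.27), the lowest of the 10 genes, with an adjusted p of 0.866 (edgeR), and was -0.025 without mouse 3, -0.53 without mouse 2 and -0.20 without mouse 11. Eno1b, which shares most of its sequence with Eno1, measured 25.9 CPM in mouse 3 and 22.4 in mouse 8, against 44.5 to 70.7 CPM in the other 10 mice. The ratio of Eno1 to Eno1b was thus 17.9 in mouse 3 and 18.2 in mouse 8, and 4.69 to 5.92 elsewhere. These 2 mice, of the P30 control and the P34 cKO, were picked out after their values were seen.

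**Figure D4:**
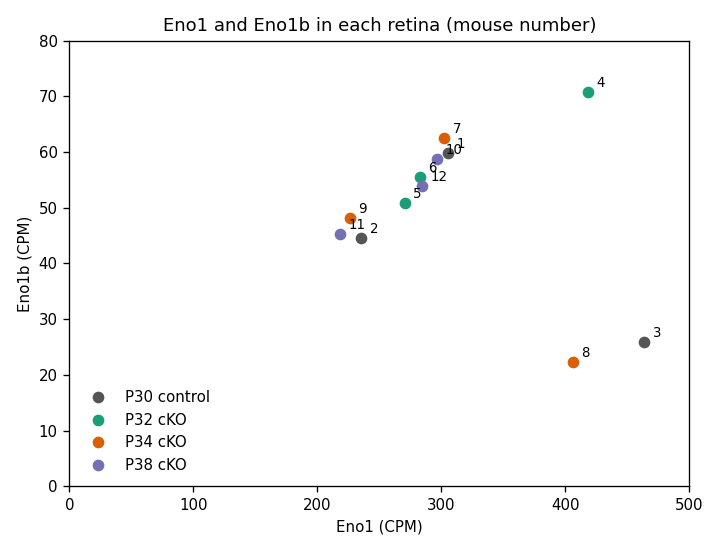
Eno1 against Eno1b (CPM) in each of the 12 retinas, coloured by group and numbered by mouse. Mice 3 and 8 lie apart, with Eno1 at 17.9 and 18.2 times Eno1b, and the other 10 retinas lie along 1 line at 4.69 to 5.92 times.

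Lactate dehydrogenase A turns pyruvate into lactate and restores NAD. Ldha (chr7:46841475-46855627, plus strand) measured 1013, 821 and 878 CPM at P30, 1159, 822 and 942 (P32), 1051, 819 and 792 (P34), and 1099, 768 and 955 (P38). The groups overlapped at each age, and the mice highest in each group were again 1, 4, 7 and 10.

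Over the 10 genes the median log2 fold change against P30 was 0.05 (P32), -0.02 (P34) and 0.10 (P38), beside -0.01, 0.00 and -0.01 over all genes tested. With single mice left out it ran from 0.034 to 0.12 (highest without mouse 3), from -0.11 (without mouse 7) to 0.10 (without mouse 8), and from 0.029 (without mouse 2) to 0.22 (without mouse 11). With libraries scaled by their size alone, the P38 median was 0.020, beside -0.096 over all genes. At P38, 7 of the 10 had a log2 fold change above 0, and 5 of 10 when libraries were scaled by their size alone. At P32 and P34, 0 of the 10 reached an unadjusted p of at most 0.05 against P30, where 5.64% and 10.5% of all genes did. Between P38 and P34, 0 of the 10 did so, where 5.08% of all genes did. All cKO retinas pooled against the controls gave 0 of 10, where 4.19% of all genes did, with log2 fold changes from -0.45 (Gapdh) to 0.24 (Hk2) and SEs of 0.11 to 0.23. At an unadjusted p, DESeq2 counted 0 (P32), 1 (P34, Gapdh) and 3 (P38) of the 10 against P30, and 0 for the pooled cKO, beside 6.29%, 11.6%, 6.16% and 4.24% of all genes.

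Aldoa and Ldha followed a property of the libraries. The share of reads with no unique position was 27.2, 24.8 and 26.7% at P30, 32.2, 26.4 and 25.8% (P32), 29.3, 24.5 and 25.4% (P34), and 28.5, 23.7 and 25.3% (P38), and in 4 of 4 groups the mouse with the highest share also had the highest Aldoa and the highest Ldha. Across the 12 retinas, log2 CPM of Ldha correlated with that share at r = 0.87 (permutation p = 0.00012, adjusted over the 10 genes 0.0012) and rho = 0.87 (permutation p = 0.00039, adjusted 0.0039). For Aldoa, r was 0.82 (permutation p = 0.00042, adjusted 0.0021) and rho 0.83 (permutation p = 0.00177, adjusted 0.00885). Without mice 4 and 7, the farthest from the median share, r was 0.80 for Ldha and 0.69 for Aldoa.

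Within groups, after each group's mean was taken off, r was 0.90 for Ldha (exact permutation p = 0.00463, adjusted 0.0231) and 0.87 for Aldoa (exact permutation p = 0.00231, adjusted 0.0231). Gapdh ran the other way, with r = -0.73 over all mice (permutation p = 0.00631, adjusted 0.0171) and rho = -0.47 (permutation p = 0.128, adjusted 0.213). Without mice 4 and 7 its r was -0.30, so the relation rested on those mice, and within groups it was -0.87 (exact permutation p = 0.0193, adjusted 0.0579). Pgk1 had r = 0.73 (permutation p = 0.00683, adjusted 0.0171) and rho = 0.66 (permutation p = 0.0217, adjusted 0.0722), 0.52 without those mice, and 0.76 within groups (exact permutation p = 0.0231, adjusted 0.0579). For the other 6 genes the adjusted p of r over the 12 mice was 0.0922 or higher. Such relations were common: 4.58% of all genes had a within-group r at least as high as Ldha, 6.19% as high as Aldoa, and 4.79% as low as Gapdh. The relation was looked for after the values of Aldoa and Ldha had been seen.

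**Figure D5:**
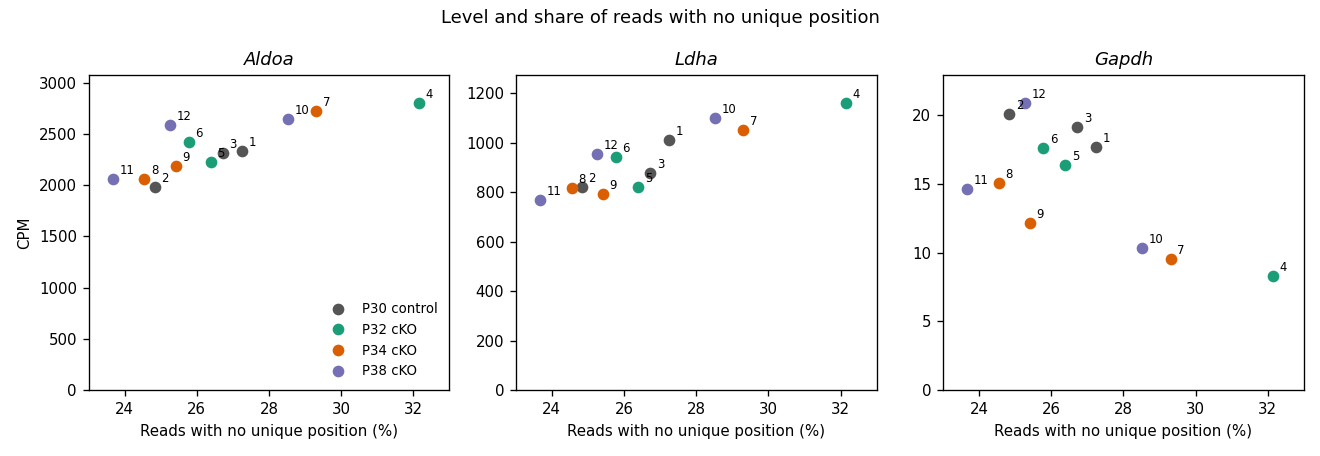
CPM of Aldoa, Ldha and Gapdh in each of the 12 retinas against the share of its reads with no unique position (%), coloured by group and numbered by mouse. Aldoa and Ldha are highest, and Gapdh lowest, in mice 4, 7 and 10, whose shares of 28.5 to 32.2% are the highest.

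Isozymes that catalyse the same step were compared within each library, as log2 ratios, for all cKO retinas against P30. The log2 ratio of Ldha to Ldhb, the form that favours pyruvate, was 2.93 ± 0.06 (SD, n = 3) in the controls and 2.84 ± 0.14 (n = 9) in the cKO, and at P34 its 3 values (2.69 to 2.76) lay below the controls (2.87 to 2.98). At P32 (2.76 to 2.96) and P38 (2.85 to 3.10) its values overlapped the controls. Over the 6 ratios and 3 ages this was the only case without overlap, and each age alone was not tested. Aldoa to Aldoc, the brain form, stood at 1.84 ± 0.03 and 1.90 ± 0.11, and Hk2 to Hk1 at -0.81 ± 0.08 and -0.70 ± 0.23. No difference in the 6 ratios passed the test, with exact two-sided permutation p adjusted over the 6 of 0.695 to 0.977 and a smallest unadjusted p that the design allows of 0.00455. The differences were 0.10 for Hk2/Hk1, -0.01 for Pfkl/Pfkm, 0.20 for Pfkl/Pfkp, 0.06 for Aldoa/Aldoc, -0.15 for Eno1/Eno2 and -0.08 for Ldha/Ldhb. Those for Pfkl/Pfkm and Eno1/Eno2 changed sign without mouse 3, to 0.060 and 0.16, and that for Pfkl/Pfkm also without mouse 1, 7, 8, 9 or 11. That for Pfkl/Pfkp was 0.020 without mouse 2, 0.32 without mouse 1 and 0.10 without mouse 4. With single mice left out, the differences ran from 0.061 (without mouse 2) to 0.16 (without mouse 7) for Hk2/Hk1, from 0.036 to 0.075 for Aldoa/Aldoc and from -0.11 to -0.052 for Ldha/Ldhb.

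Around the 10 genes, 116 others of the pathway and its surroundings were listed: further glycolytic enzymes, glucose and lactate transporters, regulators, the entry of pyruvate to mitochondria, NADH shuttles, the pentose phosphate path, gluconeogenesis and glycogen, and targets of the hypoxia-inducible factor HIF. Of these 109 were tested, and 0 were called in any of the 7 comparisons (edgeR). DESeq2 called 1 of the 109 against P30, Slc2a1 lower at P34, where it called 1.98% of all genes, and 0 at P32, at P38 and for the pooled cKO. Between cKO ages DESeq2 called 8 lower and 3 higher at P34 against P32, where it called 8.65% of all genes, 2 lower and 2 higher at P38 against P32, where it called 6.05%, and 0 at P38 against P34. At an unadjusted p of at most 0.05 against P30, the numbers lower and higher were 3 and 1 (P32), 9 and 5 (P34), and 4 and 1 (P38) of 109. Over all genes the shares lower and higher were 3.09% and 2.55% (P32), 7.06% and 3.4% (P34), and 3.82% and 1.82% (P38).

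The glucose transporter gene Slc2a1 (GLUT1), through which the RPE and retinal cells take up glucose, measured 246, 232 and 282 CPM at P30, 265, 259 and 198 (P32), 178, 143 and 183 (P34), and 284, 222 and 217 (P38). All 3 P34 retinas were below every other retina, and 9.67% of all genes lay wholly below the controls at P34. The log2 fold change at P34 was -0.59 (SE 0.15), with an unadjusted p of 0.00221 and an adjusted p of 0.162 (edgeR). DESeq2 gave -0.59 (SE 0.16) and called it, with an adjusted p of 0.0200. At P32 and P38, Slc2a1 overlapped the controls. Summed RPE markers were 169.8 to 563 CPM at P30, 95.1 to 209 (P32), 132 to 202 (P34) and 120.1 to 266 (P38). The 8 RPE marker genes had a median log2 fold change against P30 of -1.44 (P32), -1.54 (P34) and -1.17 (P38). At P34, 2 of them were called lower (edgeR), where 0.66% of all genes were called, and 0 at P32 and P38. The part of the RPE in the Slc2a1 difference was not tested.

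The lactate exporters and their partner basigin overlapped the controls at each age. Slc16a1 measured 264 to 275 CPM at P30 and 223 to 314 CPM in the cKO, Bsg 652 to 756 and 579 to 978 CPM, and the RPE exporter Slc16a8 2.56 to 10.1 and 3.20 to 9.27. Pdk1, whose product inhibits pyruvate dehydrogenase, measured 60.0 to 82.5 CPM at P30 and 58.8 to 90.7 in the cKO, and Hif1a 765 to 778 and 586 to 905 CPM, with P34 wholly above the controls, as in 10.4% of all genes (795 to 810 CPM, log2 fold change 0.063, edgeR adjusted p = 0.905). Among the enzymes of the steps not covered, Tpi1 measured 607 to 754 CPM at P30 and 613 to 946 in the cKO, and the counted part of Pgam1 17.6 to 18.7 and 14.0 to 22.5. The isozymes Pfkm, Pfkp, Aldoc, Eno2 and Ldhb likewise overlapped between P30 and the pooled cKO. With Slc2a1, Slc16a1, Slc16a8, Bsg, Pdk1 and Hif1a these made 13 genes, and outside Slc2a1 at P34 none of them reached an unadjusted p of at most 0.05 against P30.

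From the lists, the gene nearest a call with edgeR was Trim63, a ubiquitin ligase best known from muscle, at 0.867 to 1.45 CPM in the controls and 0.525 to 0.853 CPM in all 9 cKO retinas, with a log2 fold change of -0.996 (SE 0.21) and an adjusted p of 0.0936 (edgeR). All cKO retinas lay wholly below the controls in 0.478% of all genes. Slc2a10, a glucose transporter gene, measured 0.331 to 0.767 CPM at P30 and 0.0828 to 0.388 in the cKO (-1.30, SE 0.42, adjusted p = 0.599). At P34 the glycogen phosphorylase gene Pygl (13.3 to 14.96 CPM against 17.1 to 47.5), the glycerol-3-phosphate dehydrogenase gene Gpd1 (1.22 to 1.74 against 2.14 to 8.20) and the prolyl hydroxylase gene P4ha2 (13.9 to 19.4 against 24.9 to 29.8) lay below the controls, as 9.67% of all genes did, with adjusted p of 0.428, 0.324 and 0.248 (edgeR). All 3 overlapped the controls at P38, at 17.7 to 58.9 (Pygl), 2.95 to 4.25 (Gpd1) and 19.4 to 31.1 CPM (P4ha2). Summed smooth muscle markers were 29.5 to 198 CPM at P30, 9.33 to 13.9 at P34 and 16.7 to 22.7 at P38, and lens markers 557 to 41464, 292 to 800.1 and 5459 to 14052 CPM. The part of those cells was not tested. The sodium-glucose transporter gene Slc5a1 was higher at P34 (1.32 to 1.63 CPM against 0.848 to 1.07, adjusted p = 0.301, edgeR), where 10.4% of all genes lay wholly above the controls. Slc2a4, the insulin-responsive transporter, measured 0.838 to 1.35 CPM at P32 against 1.199 to 2.23 (adjusted p = 0.698, edgeR). Among the other isozymes, Hkdc1 measured 10.0 to 10.3 CPM at P32 against 10.5 to 19.2 (-0.69, SE 0.22, adjusted p = 0.698, edgeR), where 4.39% of all genes lay wholly below the controls. Pgam2 measured 1.60 to 5.48 CPM at P34 against 3.25 to 38.8 (-2.42, SE 0.99, adjusted p = 0.428, edgeR). Its control median was 7.89 CPM, and the 38.8 CPM came from mouse 3.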

How the data were processed

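The authors sequenced poly(A) RNA of whole retinas (stranded, single-end, 50 bases), aligned it to mm10 with STAR 2.5.3a and counted uniquely placed reads per Ensembl gene with HTSeq 0.6.1p1 (tools also in the submitters' processing notes). The deposited values are raw counts per gene, 1 file per mouse, summing to 29701483 to 60145034 per library. Rows that name no gene (no gene, ambiguous, no unique position) were left out of library sizes and tests, and the share with no unique position is given in the report. 54079 of the 54146 gene IDs were named by GENCODE M21. A second gene ID that carries the name Aldoa, with 13 to 42 counts per library, was not added to Aldoa.

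Counts were tested with edgeR 4.0.16 (R 4.3.3; filterByExpr, TMM, glmQLFit and glmQLFTest, 1 mean per group, all 12 libraries, Benjamini-Hochberg over 18628 genes). DESeq2 1.42.0 was an alternative. Log2 CPM used a prior count of 2, ratios an exact permutation test, and correlations 100000 resamples (scipy 1.17.1). The edgeR comparison of P38 with P30 was tested on simulated counts, with known changes set in 200 genes. The other tests were not tried on simulated data. The 10 genes, the pathway lists and the tests were chosen with earlier results of these data known. All 10 genes are named. The 13 related genes were always named, and from each list up to 4 past the call rule or, with none, up to 3 with an unadjusted p of 0.05 or less whose log2 difference from P30 was 0.5 or more either way. Replicates are separate mice, by the study's methods. No 2 libraries of a group agreed within sampling noise.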

Additional observations from a re-analysis of the deposited data

Results flagged for a closer look

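Over the 9 cKO retinas, the ratio of Eno1 to Eno1b in mouse 8 (P34) was 18.2, and its gap to the next highest ratio was 0.909 of the whole range, past Dixon's critical value for 9 samples. Of 11 quantities examined in this way (the 10 genes and this ratio), the ratio alone passed, and it was added after its values had been seen. By chance about 1 in 20 such groups pass. Mouse 3 of the P30 control, outside the 9, had a like ratio of 17.9.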

How the results depend on the processing

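The count of 0 called genes held against P30 at each age, and for all cKO pooled, under the other normalizations, filters and covariates (sex, lens markers and, added after seeing the data, the share of reads with no unique position), DESeq2, and each library left out. With an unadjusted p and the fold limit, 1 gene was higher at P38 against P30 (0.805% of all genes) and 1 against P32 (5.68%). DESeq2 called 1 gene at P38 against P32 (6.05% of all genes). Without single mice 0 to 2 were called there and 0 to 1 at P34 against P32, and those calls came without mouse 6, when 10.2% and 14.3% of all genes were called. With library size as the only scaling, the median of the 10 genes at P38 against P32 was -0.16, beside -0.14 over all genes. Without single mice, the medians ran from 0.034 to 0.12 at P32, from -0.11 to 0.10 at P34 and from 0.029 to 0.22 at P38 against P30, and from -0.13 to 0.077 at P38 against P32, with the upper ends reached without mice 3 (P32), 8 (P34) and 11 (P38). The log2 ratio differences ran from -0.094 to 0.060 for Pfkl/Pfkm and from -0.38 to 0.16 for Eno1/Eno2, and Eno1 at P38 against P34 from -0.40 to 0.011. The cause was not tested. No paired analysis was possible because each mouse has a number of its own and no number is shared between groups.

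The SE of a log2 fold change between 2 groups was 0.13 to 0.29 for these genes. For Gapdh, Pgk1 and Eno1 the counts cover the part of the transcript with a unique position.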

Other observations

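Among other isozymes, Pgam2 and Eno3 were highest in the 3 mice with the most lens marker RNA, and Hkdc1 did not follow the lens markers in every mouse. Pgam2, the muscle form of phosphoglycerate mutase, measured 38.8, 51.1 and 32.7 CPM in mice 3, 4 and 5, whose summed lens markers were 41464, 48223 and 34974 CPM, and 1.60 to 8.66 CPM in the other 9 mice. Eno3, the muscle enolase, was also highest in mice 3, 4 and 5, at 38.5, 66.1 and 46.7 CPM, against 21.8 to 36.4 CPM elsewhere. Hkdc1, a hexokinase-like gene, was low in those mice (10.0 to 10.5 CPM) but also in mouse 6 (10.0 CPM), whose lens markers summed to 788 CPM. Its 3 P32 retinas lay below every control, as in 4.39% of all genes. The part of lens tissue in these levels was not tested.

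The genes whose log2 CPM profile over the 12 libraries was nearest to the mean profile of the 10 genes were Fgg, Gm11453, Wdr72, Gm5177 and Gm9061, with root mean square differences between standardised profiles of 0.389, 0.508, 0.551, 0.593 and 0.622. They were picked as the nearest of all genes tested outside the 10. The 10 genes themselves lay farther from that mean, at 0.772 (Aldoa) to 1.36 (Gapdh), so nearness to it is not likeness to each of them.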
